A study of Homo sapiens with 5 samples.

Results

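The genes described here are a stretch of neighbours on the long arm of human chromosome 19, in band 19q13.2, taken as the protein-coding genes of GENCODE v44 (GRCh38) whose start lies between positions 40000000 and 43000000. That window holds 85 protein-coding genes. The names AXL, TGFB1 and CYP2S1 and the families CEACAM, RPS, RPL, PSM, DNAJ and ZNF were left out, which removed 16 and left 69 members, out of 61220 genes with a row in the tables. Of the 69 members, 68 had a row. The stretch was chosen by levels in these same 5 libraries, in which neighbouring genes here were seen to vary together, so the differences below describe that choice and are not a test of it.

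Poly(A) RNA of NCI-H1975 and HCC827, established human lung adenocarcinoma lines, was read as long cDNA on a nanopore instrument. The labels name no drug or genetic change, and both lines were grown, apart from each other, in the same medium with serum. HCC827 RNA made up 0, 25, 50, 75 or 100% of the mass, with 1 library per ratio. Each library is called by its mass ratio, NCI-H1975 first, so that 75:25 is mostly NCI-H1975 and 100:0 and 0:100 are the pure lines. A single RNA of each line went into all mixes, so the errors given below leave out variation between cultures, and each line stands for 1 tumour. In bulk RNA, fewer cells with a transcript and less of it per cell cannot be told apart.

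Library totals ran from 2932250 to 4058751 assigned reads. The labels give both RNAs a spike-in mix of synthetic transcripts (sequins). Such reads numbered 5475, 4678, 2830, 1269 and 0 along the series, falling at each step as the HCC827 share rose. What lies behind this fall was not tested. Since the library labelled 0:100 held 0 such reads, the main counts are also given without it, which leaves the fall among the mixes in place. Along the series, mitochondrial reads went from 5.64% to 8.85%, and the read-weighted transcript length of the whole library went from 2579 to 2180 bases. For the members that length was 2295 bases in the 100:0 library and 2291 in the 0:100 library; the part of these library properties in the results was not tested. Epithelial keratins marked both lines, with KRT18 at 3121 and 11416 reads in the pure libraries. The lung lineage factor NKX2-1 had 140 and 295 reads. The blood cell marker PTPRC and the B cell marker MS4A1 had 0 reads in all 5 libraries, and of the fibroblast markers COL1A1 had 532 and 19 reads in the pure libraries while DCN had 0 throughout.

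Band 19q13.2 is gene-dense, and its genes have little in common in function: kinases, transcription regulators, splicing proteins and metabolic enzymes sit beside families that are active in few tissues. AKT2, a kinase downstream of growth factor receptors, lies here, and the segment around it is known as a recurrent site of DNA amplification in ovarian and pancreatic carcinomas. DNA copy number was not measured in these libraries. Several of the genes lie head to head, so that transcription of both starts from the same short stretch of DNA.

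Promoters are printed for members at the ends of the range of slopes, since these neighbours differ most in how they ran along the series. COQ8B and ACTMAP had the highest slopes among members with at least 100 reads and LTBP4 had the lowest. Each run is 300 bases, from 250 before to 50 after the RefSeq start (GRCh38.p14), 5′ to 3′ on the gene's strand, and the RefSeq start nearest to that of the gene's leading transcript was used. Capitals mark every match, on either strand, to TATAAA (the TATA box), CCAAT (the box bound by NF-Y), GGGCGG (the GC box of Sp factors), CCGGAAG (bound by ETS factors), CACGTG (an E-box) or the palindrome bound by NRF1, and matches may overlap each other.
COQ8B (chr19:40715070-40715369, minus strand): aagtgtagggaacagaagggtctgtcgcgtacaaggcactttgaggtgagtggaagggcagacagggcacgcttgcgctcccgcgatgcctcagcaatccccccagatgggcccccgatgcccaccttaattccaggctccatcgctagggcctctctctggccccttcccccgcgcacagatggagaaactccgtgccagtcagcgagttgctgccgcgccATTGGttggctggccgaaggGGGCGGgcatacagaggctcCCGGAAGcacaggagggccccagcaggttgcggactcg
ACTMAP (chr19:40750428-40750727, minus strand): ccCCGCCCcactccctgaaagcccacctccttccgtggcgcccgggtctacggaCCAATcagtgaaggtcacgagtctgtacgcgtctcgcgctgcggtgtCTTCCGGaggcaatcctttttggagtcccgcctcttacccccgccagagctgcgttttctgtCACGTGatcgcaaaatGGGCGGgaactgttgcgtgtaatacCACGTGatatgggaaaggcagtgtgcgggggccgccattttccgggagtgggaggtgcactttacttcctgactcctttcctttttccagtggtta
LTBP4 (chr19:40592916-40593215, plus strand): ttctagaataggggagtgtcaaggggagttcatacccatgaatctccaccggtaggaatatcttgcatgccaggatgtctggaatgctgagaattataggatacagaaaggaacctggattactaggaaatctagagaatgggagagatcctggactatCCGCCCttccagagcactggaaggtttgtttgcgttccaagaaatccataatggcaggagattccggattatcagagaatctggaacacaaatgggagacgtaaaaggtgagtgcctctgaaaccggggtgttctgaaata

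The LTBP4 run had 6 CG pairs and a G+C share of 45.7%, against 23 pairs and 58.7% in ACTMAP and 19 pairs and 64.3% in COQ8B. ACTMAP held 2 matches to CACGTG, 2 to GGGCGG and 1 each to CCAAT and CCGGAAG. COQ8B had 1 match each to the boxes of NF-Y, Sp and ETS factors, and LTBP4 had 1 match, to the GC box. RefSeq promoters were matched by symbol for 31 of the members tested, 52 runs in all, since a gene can have several starts. Their median G+C share was 64.8%, beside 64.7% over 14137 runs of all tested protein-coding genes. GGGCGG was found in 80.8% of the members' runs and in 66.6% of those of all tested protein-coding genes, CCAAT in 40.4% and 34.7%, CACGTG in 21.2% and 9.37%, CCGGAAG in 7.69% and 17.5%, TATAAA in 1.92% and 6.06%, and the NRF1 palindrome in 1.92% and 2.00%. Over all 35097 promoters of the table, the shares were 45.0%, 34.6%, 7.25%, 10.3%, 11.5% and 1.24%. These are matches of letters, not shown binding sites.

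As a group, the members were higher in HCC827. Their summed level went from 568 CPM in the 100:0 library to 833 at 75:25, 1079 at 50:50, 1280 at 25:75 and 1648 in the 0:100 library. CPM are assigned reads per 1000000 after scaling by edgeR's TMM factors, which set the bulk of genes equal between libraries. No library was out of order, and the 0:100 sum was 2.90 times the 100:0 sum. Scaled by library totals alone, the sum was 2.18 times as high. The 95% Poisson intervals of the sums, which cover counting error only, were 543 to 594, 807 to 861, 1047 to 1112, 1239 to 1322 and 1599 to 1697. A straight line between the pure libraries gives 838, 1108 and 1378 for the mixed ones, so the 25:75 library lay below its line by more than counting error and the other mixes lay within it.

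**Figure D1:**
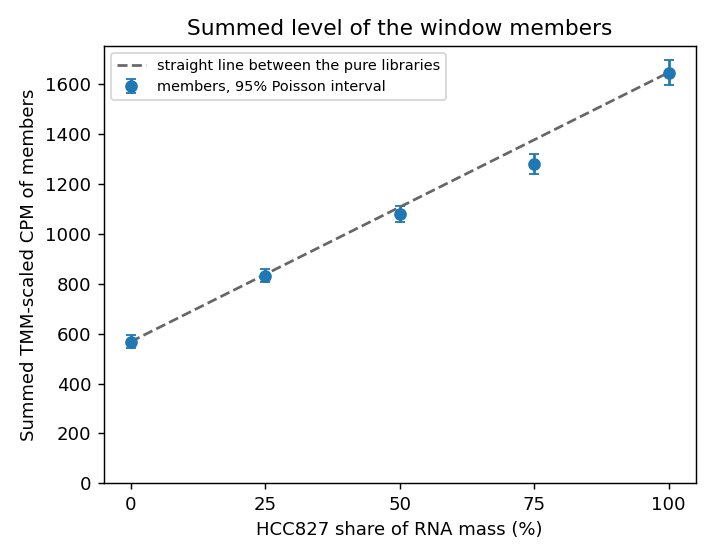
Summed TMM-scaled CPM of the members (y axis) against the HCC827 share of RNA mass in % (x axis), 1 library per point, with 95% Poisson intervals; the dashed line joins the pure libraries. The sum goes from 568 to 1648 CPM, and the point at 75% HCC827 sits at 1280, under the line at 1378.

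The difference along the series was measured as a slope, the fitted log2 change from 0 to 100% HCC827 over the 5 libraries, with its standard error (SE), by edgeR's quasi-likelihood fit on all genes. Of the 68 members with a row, 34 entered the fit by having 10 or more reads in 2 or more libraries. These held 17553 of the members' 17824 reads. Among the 34, 26 had a higher slope at an adjusted p under 0.05 (Benjamini-Hochberg over 13492 genes), where 23.5% of all genes tested did. None of the 34 was called lower, where 22.3% of all genes were. Among protein-coding genes alone, 24.2% were called higher and 22.9% lower. At an unadjusted p under 0.05, 1 member was lower in edgeR and in limma-voom and 0 in DESeq2. The median slope of the 34 was 1.51, beside -0.035 over all genes tested, and slopes were above 0 for 32 of the 34 for 48.6% of all genes and for 48.7% of protein-coding ones. Without the 0:100 library, 19 of 33 members were called higher, where 16.9% of all genes were. Scaling by library totals moved the median slope of all genes to -0.44 and that of the members to 1.10, and called 22 of the members higher and 1, CD79A, lower, where 13.4% of all genes were called higher and 37.6% lower. The rule rests on this contrast, so nothing is read from these shares.

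Between the pure libraries, 25 of the 34 were at least 2-fold higher in 0:100, where 16.2% of all genes and 15.6% of protein-coding ones were, and 1 was at least 2-fold lower, where 18.4% and 17.4% were. Values ran strictly in order over the 5 libraries for 17 of the 34, beside 28.5% of all genes and 29.3% of protein-coding ones. The quartiles of the members' slopes were 0.83 and 2.02, so the members mostly shared a direction but not a size.

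**Figure D2:**
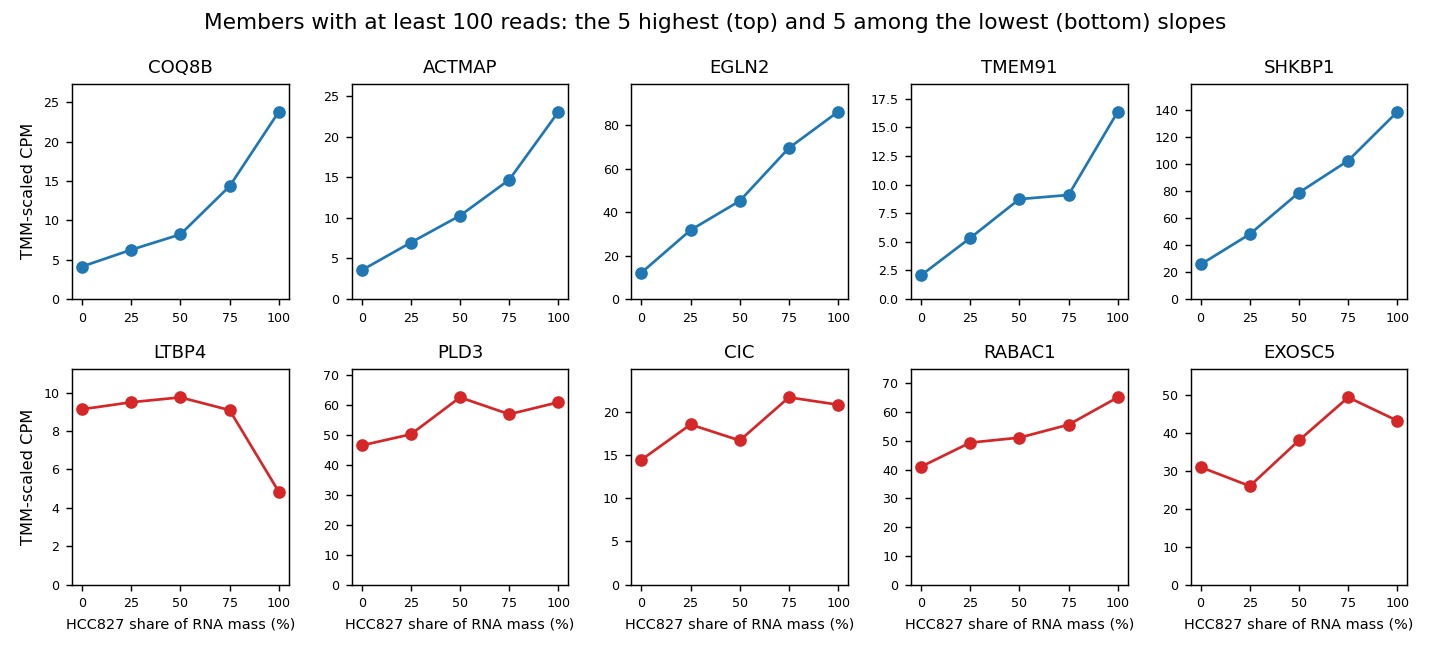
TMM-scaled CPM (y axes, from 0) against the HCC827 share of RNA mass in % (x axes) for the members with at least 100 reads that had the 5 highest slopes (top row, blue) and 5 among the lowest (bottom row, red), 1 library per point. COQ8B goes from 4.12 to 23.8 CPM, whereas LTBP4 stays between 9.09 and 9.75 CPM up to 25:75 and is at 4.83 CPM in the 0:100 library.

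Signalling genes made up 14 of the members with a row, and 11 were tested, of which 8 were called higher and 0 lower. Over all genes tested, 23.5% were called higher and 22.3% lower, and these shares stand beside the counts of each group below. The groups only divide the 26 members called, so their counts are not results of their own. AKT2 (ENSG00000105221.18, chromosome 19, 40230317 to 40285536, minus strand) had 66, 166, 222, 195 and 260 reads along the series, or 19.4, 38.5, 57.0, 68.2 and 96.7 CPM. Its level climbed at each step and was 4.97-fold higher in the 0:100 than in the 100:0 library, with a slope of 2.06 ± 0.21 (SE). MAP3K10, a kinase upstream of the stress kinase JNK, had 1.77, 4.63, 4.88, 8.04 and 10.0 CPM. That also was an unbroken climb, but it rested on 6 reads at 100:0 and 27 at 0:100. GSK3A, a kinase that AKT enzymes phosphorylate, had 12.4, 18.8, 22.3, 32.2 and 48.0 CPM and a slope of 1.88 ± 0.22 (SE). It overlaps ZNF526 on the opposite strand, which had 138 reads against its own 431. No source used here says if reads were counted by strand.

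SHKBP1, which binds an adaptor of receptor endocytosis, had the steepest course of the tested signalling genes, at 25.6, 48.2, 79.0, 103 and 139 CPM, with a slope of 2.28 ± 0.19 (SE). ITPKC, an inositol trisphosphate kinase, was 3.41-fold higher in the 0:100 library. NUMBL, a relative of the Notch regulator NUMB, and ARHGEF1, a guanine nucleotide exchange factor, were 2.20-fold and 1.82-fold higher. Neither call held without the 0:100 library, with scaling by library totals or with DESeq2, and that of NUMBL was also lost without the 100:0 or the 75:25 library. RABAC1, a membrane protein that binds prenylated Rab proteins, had 40.9, 49.3, 51.1, 55.6 and 65.1 CPM, an ordered but shallow course with a slope of 0.60 ± 0.16 (SE). It too lost its call with library totals and without the 0:100 library, and also without the 100:0 library.

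Signalling genes also included the member that went furthest the other way among those with at least 100 reads. LTBP4, which stores latent TGF-beta in the matrix, had 9.13, 9.50, 9.75, 9.09 and 4.83 CPM. The first 4 libraries were nearly level and the 0:100 library alone was low, with 13 reads against 31 in the 100:0 library, and the slope of -0.60 ± 0.42 (SE) did not pass the threshold. Without the 0:100 library the slope of LTBP4 turned to 0.013.

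Among transcription and oxygen-sensing genes, 6 of 8 were tested, 4 were called higher and 0 lower. EGLN2, a prolyl hydroxylase that marks hypoxia-inducible factors for destruction when oxygen is present, had 12.1, 31.7, 45.2, 69.6 and 86.3 CPM and was 7.14-fold higher in the 0:100 library, with a slope of 2.47 ± 0.25 (SE). Its levels rose at every step. SERTAD1, a regulator of E2F-dependent transcription, had 8.54, 24.1, 23.9, 24.8 and 46.1 CPM. The 3 mixed libraries were level with each other and stood between the pure ones, and its call did not hold without the 0:100 library. Its neighbour and relative SERTAD3 had 5.30, 3.01, 5.39, 6.64 and 8.18 CPM and a slope of 0.96 ± 0.52 (SE), which did not pass at 93 reads in all.

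ERF, an ETS-family repressor controlled by ERK, had 13.0, 22.5, 35.4, 28.0 and 51.7 CPM, with the 25:75 library out of order, and a slope of 1.66 ± 0.30 (SE). CIC, also a repressor that ERK signalling relieves, lies next to it and had 14.4, 18.5, 16.7, 21.7 and 20.8 CPM. The course of CIC was shallow and out of order, and its slope of 0.50 ± 0.26 (SE) did not pass. DEDD2, a nuclear protein with a death effector domain, was 2.95-fold higher in the 0:100 library.

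All 3 RNA-processing members were called higher. HNRNPUL1, an RNA-binding protein of the hnRNP group, was the member with most reads, 2100 in all, and had 48.9, 91.5, 138, 163 and 199 CPM with a slope of 1.87 ± 0.20 (SE). SNRPA, a protein of the U1 particle of the spliceosome, had 50.4, 79.2, 88.5, 108 and 144 CPM with a slope of 1.36 ± 0.15 (SE). Both ran in order. EXOSC5, a subunit of the RNA exosome, was 1.39-fold higher in the 0:100 library and was not in order. Its call was lost with library totals, where its slope was 0.36 in place of 0.77, without the 75:25 library (0.57) and without the 25:75 library (0.62). HNRNPUL1 overlaps TGFB1 and a noncoding gene on the opposite strand, with 237 and 336 reads.

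Enzymes numbered 13, of which 6 were tested and 5 were called higher, with 0 lower. COQ8B, an atypical kinase needed for coenzyme Q synthesis, had 4.12, 6.25, 8.21, 14.3 and 23.8 CPM. Its slope of 2.57 ± 0.34 (SE) was the highest of the members tested, from 14 reads at 100:0 and 64 at 0:100. COQ8B overlaps ITPKC on the opposite strand, with 317 reads against its own 178, and 37.6% of its reads were on retained-intron transcripts. PAFAH1B3, a catalytic subunit of platelet-activating factor acetylhydrolase, had 20.9, 40.8, 61.1, 76.5 and 104 CPM, an ordered climb to 4.96-fold. BLVRB, which reduces biliverdin and flavins, had 33.0, 41.0, 53.9, 80.0 and 77.3 CPM and a slope of 1.37 ± 0.19 (SE). Its 25:75 and 0:100 values were close to each other and above the rest. DMAC2, an assembly factor of respiratory complex I, was 3.35-fold higher and BCKDHA, a subunit of the branched-chain ketoacid dehydrogenase, 2.31-fold higher. PLD3, a lysosomal nuclease, was the tested enzyme that was not called, at 46.5, 50.3, 62.6, 57.0 and 61.0 CPM with a slope of 0.39 ± 0.17 (SE). Under library totals its slope was -0.021.

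Of the 5 tested members with other roles, 4 were called higher and 0 lower. ACTMAP, a protease that matures actin, had 3.54, 6.95, 10.3, 14.7 and 23.1 CPM and a slope of 2.48 ± 0.33 (SE). TMEM91, a transmembrane protein, had 2.06, 5.33, 8.73, 9.09 and 16.4 CPM and a slope of 2.41 ± 0.44 (SE), from 7 reads in the 100:0 library. It shares its strand and part of its span with the readthrough gene ENSG00000255730, which also covers BCKDHA, so the division of reads among the 3 is uncertain. ENSG00000255730 was 2.52-fold higher in the 0:100 library and lost its call without that library. CCDC97 was 4.08-fold higher. C19orf47, of the same group, had a slope of 0.75 ± 0.57 (SE), which did not pass. Among signalling genes, B9D2, a protein of the ciliary transition zone, had a slope of 1.08 ± 0.51 (SE), which did not pass. PRX, the myelin protein periaxin, was called higher on 38 reads in all and lost the call with DESeq2 and without the 100:0, the 25:75 or the 0:100 library.

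Genes that are active in few tissues mostly lay below the filter. Of 10 such members, 2 were tested. CNFN, a component of the cornified envelope of skin, had 7.95, 11.8, 11.3, 14.3 and 20.8 CPM and a slope of 1.21 ± 0.31 (SE), and its call did not hold without the 0:100 library. CD79A, a subunit of the B cell antigen receptor, had 20, 24, 15, 12 and 4 reads, or 5.89, 5.56, 3.85, 4.19 and 1.49 CPM. It was the 1 tested member at least 2-fold lower in the 0:100 library, and its slope of -1.44 ± 0.59 (SE) did not pass, though it did with library totals (-1.84) and without the 25:75 library (-1.84). Its partner CD79B had 0 reads in every library. CD79A starts just past RPS19, an abundant ribosomal protein gene on the same strand, which went the other way, from 3077 to 11678 reads between the pure libraries.

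The 34 untested members had from 0 to 34 reads in total, and 11 of them had 0 in every library. Among the 11 were CYP2A6, CYP2A7, CYP2A13 and CYP2F1, drug-metabolizing P450 enzymes, as well as LYPD4, DMRTC2 and ERICH4. Since 0 reads allow for as many as 3, these were not detectable at this depth. Of the 23 with reads, 9 had more in the 0:100 than in the 100:0 library, 7 had fewer and 7 had equal numbers. The pregnancy-specific glycoproteins PSG1, PSG3, PSG6, PSG7 and PSG8, placental proteins with near-identical copies among which reads can be divided, had 10, 13, 3, 3 and 1 reads in all.

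The members with the steepest and the flattest courses were interleaved along the chromosome. In steps of 0.5 Mb, the median slope of tested members was 1.56 from 40 to 40.5 Mb (8 genes), 1.96 to 41 Mb (8 genes), 1.47 to 41.5 Mb (8 genes), 0.60 to 42 Mb (3 genes) and 1.66 to 42.5 Mb (7 genes). No member was tested from 42.5 to 43 Mb. The low step rests on ARHGEF1, RABAC1 and CD79A. Members on the plus strand had a median slope of 1.31 (16 genes) and those on the minus strand 1.67 (18 genes). Taken in order of position, 9 neighbouring members from MAP3K10 to SHKBP1 had slopes above 0, then 14 from NUMBL to DMAC2 and 9 from ARHGEF1 to CNFN, with LTBP4 and CD79A between the runs.

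Head-to-head pairs were compared by the start of each gene's leading transcript. In 3 pairs of tested members these starts lay at most 1000 bases apart. C19orf47 and PLD3, 168 bases apart, had slopes of 0.75 ± 0.57 and 0.39 ± 0.17 (SE), neither of which passed. EXOSC5 and BCKDHA, 459 bases apart, had 0.77 ± 0.24 and 1.04 ± 0.17 (SE), both among the lower values of the stretch. ACTMAP and SNRPA, 650 bases apart, had 2.48 ± 0.33 and 1.36 ± 0.15 (SE). These partners shared a direction, while the difference between their slopes was not tested. ACTMAP and SNRPA overlap on opposite strands, as do C19orf47 and PLD3, so the division of reads within these pairs is uncertain.

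**Figure D3:**
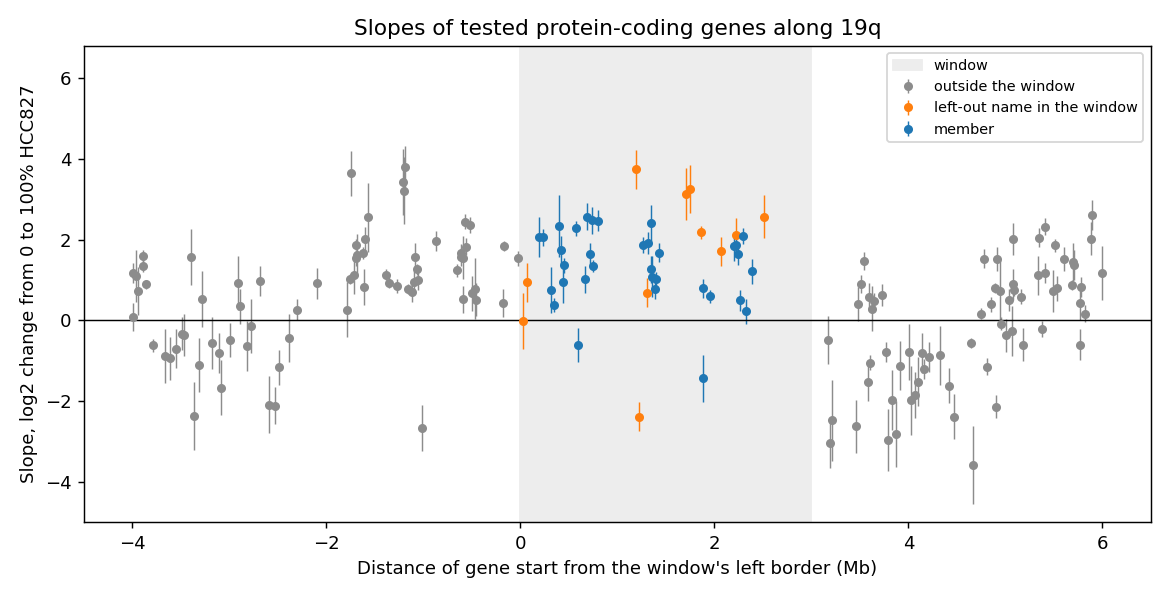
Slope (y axis, log2 change from 0 to 100% HCC827, with its SE as a bar) of each tested protein-coding gene against the distance of its start from the window's left border in Mb (x axis). Blue points are members, orange points genes with left-out names, grey points genes outside the shaded window. All but 2 blue points lie above 0, grey points just left of the window do as well, and points just right of it lie mostly below 0.

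The edges of the stretch were then read from the genes around it. The left border of the window was not an edge. The tested genes nearest to it on the inside were left-out names, ZNF780B with a slope of -0.02 ± 0.70 and ZNF780A with 0.94 ± 0.47 (SE), neither of which passed. The first members tested, MAP3K10, AKT2 and C19orf47, had slopes of 2.06, 2.06 and 0.75. Just outside it, PSMC4, a proteasome subunit, had 20.9, 31.0, 34.6, 53.1 and 61.7 CPM and a slope of 1.54 ± 0.19 (SE). FBL, the methyltransferase fibrillarin of the nucleolus, had 99.0, 153, 209, 285 and 364 CPM and a slope of 1.85 ± 0.13 (SE). Both ran in order, as AKT2 did. DYRK1B, a kinase, followed with a slope of 0.43 ± 0.34 (SE), which did not pass. From 38 to 40 Mb, 30 of 39 tested protein-coding genes were called higher and 1 lower, with a median slope of 1.54. The median changed sign further left: it was 1.20 from 38 to 39 Mb over 24 genes and -0.29 from 37 to 38 Mb over 12 genes. From 37 to 38 Mb, 1 gene was called higher, 3 lower and 8 were not called. The median log2 ratio between the pure libraries there was 0.043. Most of these genes are ZNF names, a family left out of the members, including the 3 called lower. The others, ENSG00000267360, ZFP30 and SIPA1L3, had slopes of 0.93, -0.43 and 0.92, and none passed. No left edge is placed on this change.

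On the right, the slopes of the nearest tested genes changed sign near the border of the window. PAFAH1B3 and CNFN, the last member tested, had slopes of 2.09 and 1.21. CNFN ends at position 42390297. CEACAM1, a left-out name that starts at 42507304, was the last tested gene before the right border, with a slope of 2.57. Beyond the border, PSG5 had 4.12, 3.24, 4.36, 3.15 and 2.60 CPM and a slope of -0.48 ± 0.60 (SE). PSG4 had 66, 61, 42, 17 and 0 reads along the series, at 19.4, 14.1, 10.8, 5.94 and 0 CPM, and was at least 17.4-fold lower when the 0 was set to 3 reads. PSG9 had 10, 10, 9, 3 and 0 reads and did not pass, though it did with library totals, with limma-voom and without the 50:50 library. The PSG genes share reads with near-identical copies, so their division is uncertain, and in the 0:100 library each of the 3 had fewer reads than in the 100:0 library. From 43 to 45 Mb, 6 of 39 tested protein-coding genes were called higher and 16 lower, with a median slope of -0.86. Among these 39 were many ZNF genes and CEACAM19, names of the kinds left out of the members. All of those but ZNF576 had slopes below 0. The other genes there had slopes on both sides of 0, and no median without the ZNF and CEACAM names was taken. Further right the direction turned again: from 45 to 46 Mb, 15 of 27 were called higher and 0 lower, with a median slope of 0.88. Over all 66 tested genes from 43 to 46 Mb, 21 were called higher and 16 lower, with a median slope of 0.23. Between CEACAM1 and PSG5 no gene was tested. Their signs differed across an interval from position 42561234, the end of CEACAM1, to 43166256, the nearer end of PSG5. This interval holds the right border of the window. The slope of PSG5 was smaller in size than its SE. Apart from ZNF names, the called genes from LYPD3 to PLAUR went both ways. LYPD3 and IRGQ were called lower, with slopes of -2.62 and -1.52. ETHE1, XRCC1 and PLAUR were called higher, with slopes of 0.90, 1.47 and 0.49. As on the left, no edge is placed on this change.

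**Figure D4:**
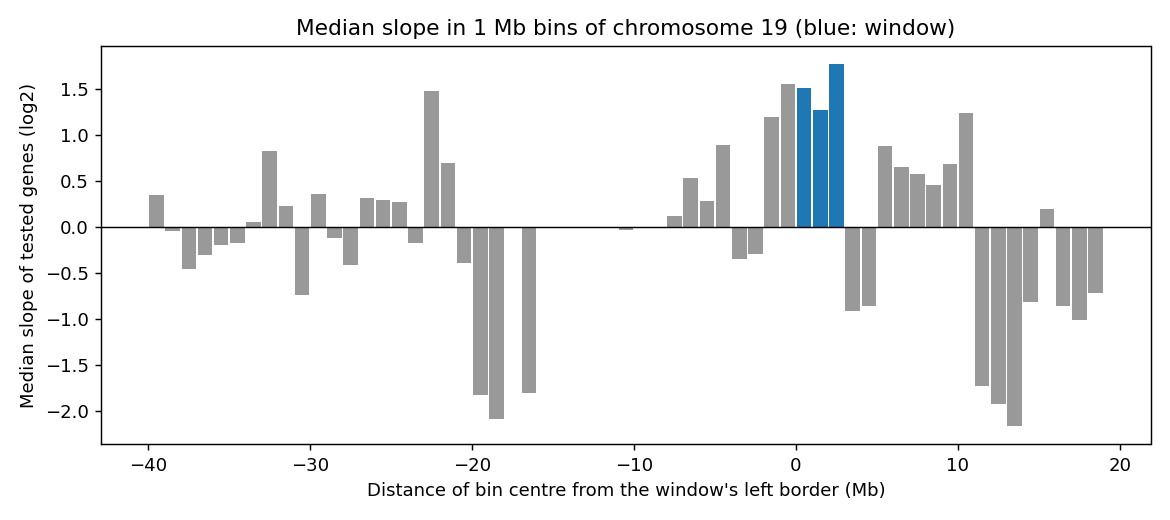
Median slope of tested protein-coding genes (y axis, log2) in 1 Mb bins of chromosome 19 with at least 5 tested genes, against the distance of the bin centre from the window's left border in Mb (x axis). Names of the left-out kinds are included. Blue bars are the 3 bins of the window; with the 2 grey bars to their left they form 5 neighbouring bins with medians from 1.20 to 1.77, with negative bars on both sides.

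Along the whole chromosome, 51 bins of 1 Mb had at least 5 tested protein-coding genes, left-out names included. The 3 bins of the window had medians of 1.51, 1.27 and 1.77 and ranked 3, 5 and 1 by median slope. The 2 bins to the left ranked 7 and 2. Together, 63 of 84 tested genes from 38 to 43 Mb were called higher and 2 lower. Rank 4 went to a distant bin on the short arm, from 17 to 18 Mb, at 1.48. Over chromosome 19 outside the window the median slope was 0.020, with 29.7% of 872 genes called higher and 26.9% lower. The genes with left-out names inside the window shared the direction in most cases: 7 of 11 tested were called higher and 1, AXL, was called lower.

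Long reads gave the make-up of transcripts for the 28 members with at least 100 reads. A single transcript held at least 90% of reads in 9 of them, such as SNRPA-201 with 99.5%, ERF-201 with 99.2% and NUMBL-201 with 98.7%. In 11 of the 28 the reads of the leading transcript and the next stood within 1.1 times of each other, as for the leading pair of AKT2 at 1.03 times. How reads that match several transcripts were divided was not stated, so such shares are uncertain. For all 28, the 95% Clopper-Pearson interval of the leading transcript's share in the 100:0 library overlapped that in the 0:100 library. With few reads such overlap is easily met. In the 100:0 library the interval ran from 0.21 to 38.5% for ACTMAP on 12 reads and from 3.67 to 71.0% for TMEM91 on 7. The same count was not taken over all genes, so an even make-up is not read from it. The leading transcript of HNRNPUL1, for example, held 50.0% (42.2 to 57.9) and 52.4% (48.1 to 56.7), while the gene's level was 4.06-fold apart. The leading transcript of RABAC1 was less even, at 37.4% (29.36 to 46.01), 37.6%, 37.2%, 57.2% (49.2 to 65.0) and 50.9% (43.2 to 58.5) along the series. Its interval in the 25:75 library lay apart from those of the first 3 libraries, and those of the pure libraries overlapped by a small margin.

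Transcripts annotated as retained introns were a large part of some members. In EGLN2 they took 26.8% (14.2 to 42.9) of reads in the 100:0 library and 33.2% (27.2 to 39.7) in the 0:100 library. In AKT2 they took 19.7% (10.9 to 31.3) and 18.5% (13.9 to 23.7). In both genes the intervals overlap, so no difference in make-up was detectable beside a several-fold difference in level. In COQ8B, the member with the highest slope, such transcripts took 28.6% (8.39 to 58.1) of 14 reads in the 100:0 library. They took 35.9% (24.3 to 48.9) of 64 reads in the 0:100 library, with overlapping intervals. In ARHGEF1 the share was 54.1% (40.9 to 66.9) in the 100:0 library, then 45.9%, 55.7% and 44.6%, and 36.4% (26.4 to 47.3) in the 0:100 library, out of order and with overlapping intervals. When only transcripts annotated as protein-coding were summed, 26 members were called higher, where 23.2% of all genes tested in that setting were.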

How the data were processed

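Complementary DNA of 5 mixes of NCI-H1975 and HCC827 RNA was sequenced, with 1 library per ratio. The authors deposited 1 table per library of estimated counts per transcript, unscaled; the submitters' processing notes name minimap2 2.24, Salmon 1.9.0 and GRCh38. The annotation release and any use of strand are not given in the sources used here. Identifiers with repeated lines (161) were summed, 2 values that were not whole were rounded, and transcripts were paired with GENCODE v44 genes (98.6% of human reads). Human transcripts that did not match (3675) entered library totals only. Genes with at least 10 reads in at least 2 libraries were fitted with edgeR 4.0.16 (R 4.3.3): TMM scaling of library totals, quasi-likelihood slope on the HCC827 mass fraction, Benjamini-Hochberg over all genes, threshold 0.05, with 3 residual degrees of freedom. A mixture is curved on the log scale, so slopes understate large ratios. Ratios of the pure libraries set counts under 3 to 3. Alternatives used DESeq2 1.42.0 and limma 3.58.1. The fit was also run on simulated data simpler than these, with the same dispersion for all genes, and nothing is read from that run here. Members with at least 100 reads, a fixed list and the genes at the borders were named; C19orf47, PRX, B9D2, CD79A, the untested genes and left-out names were named after their values were seen. A result for 1 gene is not reported here. Head-to-head pairs and the choice among several promoters of a gene were also added then. The members and lists were chosen with earlier results of these data known. PCR copies count as separate reads, so intervals cover counting error only.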

Additional observations from a re-analysis of the deposited data

How the results depend on the processing

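The count of members called higher stayed within 1.5 times of 26 in the alternatives run: from 19 to 26 over fits that left out 1 library (lowest without 0:100), 22 with library totals, 23 with DESeq2's Wald test, 23 with 10 reads in every library and 28 with no read filter. Of all genes tested, 23.5% were called higher in the main fit and 13.4% with library totals. That share was 19.1% with DESeq2's Wald test, 24.7% with 10 reads in every library and 11.8% with no read filter. The count called lower was 0, and 1 with library totals (CD79A), 1 with no read filter (B3GNT8) and from 0 to 1 over fits that left out 1 library (CD79A without 25:75). The median slope of 1.51 was 1.10 with library totals, 1.18 with no read filter, 1.31 with 10 reads in every library and from 1.34 to 1.52 over fits that left out 1 library (1.40 without 25:75). The median log2 ratio of 1.53 was 1.12 with library totals, 1.19 with the 25:75 library in place of 0:100 (chosen after seeing the data), 1.75 with left-out names put back and 1.25 with the window widened by 0.5 Mb at each end. The 1 member at least 2-fold lower became 2 with library totals or protein-coding transcripts only, and 0 with a floor of 10 reads or with 25:75 in place of 0:100. Summed CPM in the order of the series was 657, 886, 1084, 1191 and 1433 with library totals and 527, 768, 989, 1169 and 1503 with protein-coding transcripts only. What lies behind these shifts was not tested; the settings differ in scaling, or in which genes, transcripts or libraries entered.

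Of 433 refits over 37 named genes, 408 left direction and call as they were, 17 lost a call, 5 gained one and 3 changed sign, all 3 in genes that were not called: with library totals, -0.021 for PLD3, and without the 0:100 library, 0.013 for LTBP4 and -0.032 for DYRK1B. No paired analysis was possible because each ratio has 1 library. A gene with few reads is limited by counting error, as in the 34 members that were not tested.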
